A study of Rattus norvegicus with 4 samples.

Results

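The 10 genes described here belong to the glucocorticoid pathway of the liver. They are the receptor itself (*Nr3c1*), a pair of genes that set how much active steroid reaches it (*Hsd11b1* and *Serpina6*) and 7 genes that the receptor is known to induce (*Fkbp5*, *Zbtb16*, *Tsc22d3*, *Sgk1*, *Klf9*, *Errfi1* and *Cebpd*). They were taken by symbol from the gene tables of the 4 libraries, where each had 1 row, out of 16985 gene symbols analysed. Corticosterone, the main glucocorticoid of the rat, binds the receptor in the cytoplasm, where the receptor is held by heat shock proteins and their partners, and the complex then enters the nucleus and acts on target genes. In liver this pathway is known for raising amino acid breakdown and glucose output, and its hormone follows both the time of day and stress.

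The libraries came from the livers of wild type rats that inhaled sevoflurane (4.5%) or desflurane (6%). For each agent, a control rat was decapitated at loss of consciousness (0 h) and a further rat after 6 h of anesthesia. Each of the 4 groups held 1 library, so the values have no replicate error. Every animal, controls included, was exposed to an anesthetic, and no liver of an untreated rat was analysed here. The labels give no strain, sex or age. The submitters state that control and anesthetized livers were taken 6 h apart, so anesthesia and time of day cannot be told apart in any comparison of 6 h with 0 h.

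Levels are given as TPM, an abundance scaled for gene length and library size. Depth, derived from coverage and FPKM, was between 3.50 Gb of aligned bases (sevoflurane 0 h) and 5.57 Gb (desflurane 6 h). Read counts are not in these tables, and counting intervals were not computed. Changes are differences of log2(TPM + 1), which understate the change of low genes. A call, higher or lower, needed a TPM above 2 in the library with more and a ratio above 2 between the libraries. Liver is a mixed tissue, and in such bulk values fewer cells of a type and less RNA per cell cannot be told apart. Hepatocyte markers (8 of 8 found) summed to between 100433 and 111647 TPM in each library.

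With sevoflurane 5 of the 10 genes were called higher (*Fkbp5*, *Zbtb16*, *Tsc22d3*, *Klf9* and *Cebpd*) and 1 was called lower (*Sgk1*), where 8.75% of all genes above the minimum were called, 5.04% higher and 3.71% lower. With desflurane 4 were called higher (*Fkbp5*, *Zbtb16*, *Klf9* and *Errfi1*) and 0 lower, against 4.10% and 5.55% of all genes (9.65% in either direction). Of the 10 genes, 3 were called higher with both agents (*Fkbp5*, *Zbtb16* and *Klf9*), against 2.54% of all genes. The same rule between the controls called 2 of the 10 higher in the desflurane control (*Zbtb16* and *Cebpd*) and 0 lower, against 1.96% and 0.799% of all genes (2.76% in all). Between the anesthetized livers, *Sgk1* was the 1 gene of the 10 called higher in desflurane 6 h and 0 were lower, against 2.21% and 1.77% (3.99% in all). The median change of the 10 genes was 0.68 with sevoflurane and 0.31 with desflurane, beside 0.05 and -0.10 over the 9201 genes whose TPM averaged 1 or more. Between the controls the medians were 0.12 and 0.11.

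**Figure D1:**
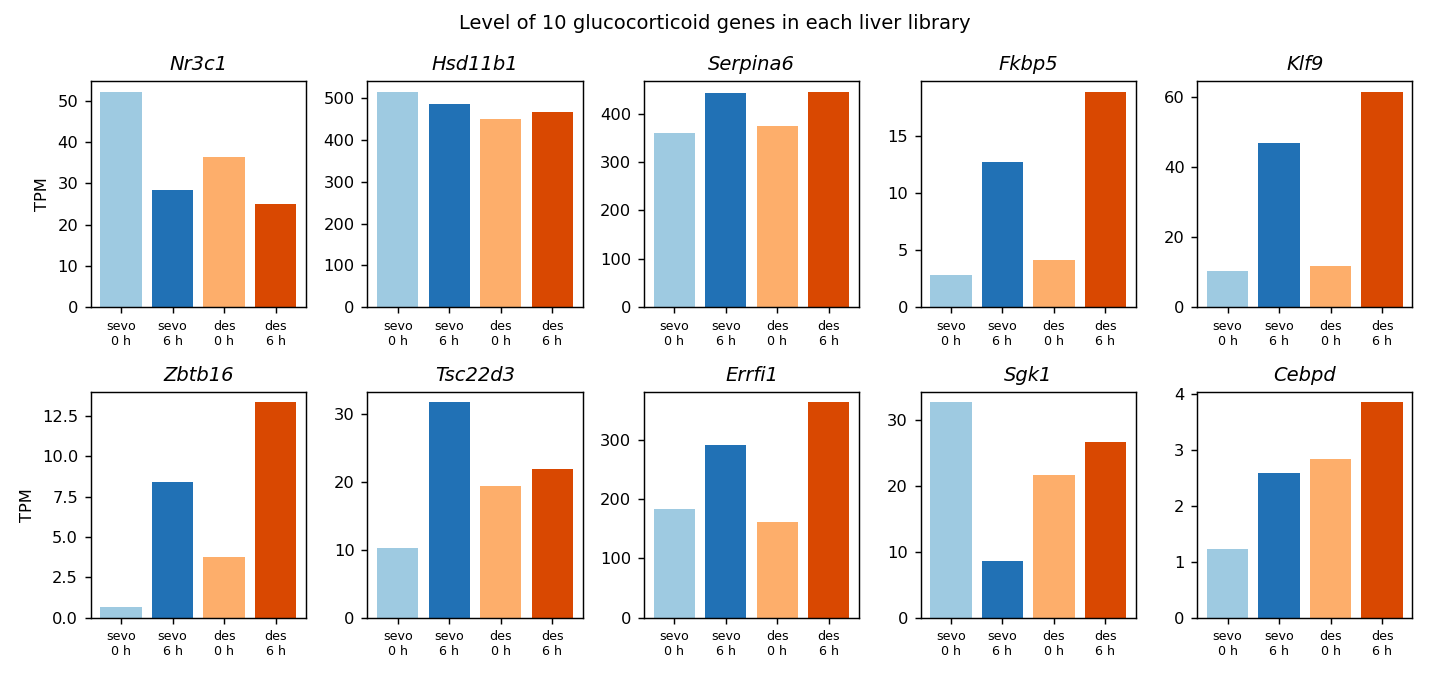
TPM (linear axis from 0, a separate scale for each gene) of the 10 genes in the 4 libraries, 1 bar per library, with 0 h controls in light and 6 h libraries in dark colors. *Fkbp5*, *Klf9* and *Zbtb16* were higher at 6 h with both agents, while *Sgk1* was lowest in sevoflurane 6 h, at 8.59.

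The receptor gene *Nr3c1* (chromosome 18, 31728373 to 32670678, minus strand, rn6) had a TPM of 52.2 in sevoflurane 0 h, 28.5 in sevoflurane 6 h, 36.4 in desflurane 0 h and 24.9 in desflurane 6 h. Both 6 h livers were therefore below both controls, as were those of 28.0% of genes whose TPM averaged 2 or more. The difference was 1.83-fold with sevoflurane and 1.46-fold with desflurane (log2 changes of -0.85 and -0.53), and neither passed the rule. The controls differed by nearly as much as the desflurane pair, with the desflurane control 1.43-fold below the sevoflurane control (-0.51). The named row spans 942306 bp and encloses *Arhgap26*, *Fgf1*, *Spry4* and *LOC100911367*. Within it, the reads were assembled into separate pieces on the same strand. The piece at the 3′ end, from about 31728382 to 31749644, had a TPM of 52.0, 27.2, 35.7 and 26.0 in the order of libraries above. The piece at the 5′ end, starting at 32669425 in both controls, had a TPM of 42.4, 27.5, 35.0 and 23.3. In desflurane 6 h the 5′ piece extended to 32703660, while in the other libraries it reached between 32673198 and 32673291. Its value there therefore covers a longer stretch. Both pieces had lower values in the 6 h livers than in the controls. These pieces and the named row share reads and are not independent readings.

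*Hsd11b1* and *Serpina6*, which act before the receptor, differed little between the libraries and were the most abundant of the 10 genes. *Hsd11b1* (chromosome 13, 111946626 to 111972603) encodes the enzyme that regenerates active glucocorticoid from its inert form inside hepatocytes. Its TPM was 515 in sevoflurane 0 h, 487 in sevoflurane 6 h, 450 in desflurane 0 h and 468 in desflurane 6 h. The changes were -0.08 with sevoflurane and 0.06 with desflurane, both smaller than the difference of -0.20 between the controls. *Serpina6* (chromosome 6, 127523949 to 127534178) encodes the plasma globulin that carries the hormone in blood. Its TPM was 359, 443, 373 and 445 in the same order, so both 6 h livers were above both controls, by 0.30 with sevoflurane and 0.25 with desflurane, where the controls differed by 0.06. None of these differences passed the rule.

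*Fkbp5* and *Klf9* were higher by similar ratios with both agents and differed little between controls. *Fkbp5* (chromosome 20, 7976704 to 8061724, minus strand) encodes FKBP51, a partner of the heat shock protein HSP90 that lowers the affinity of the receptor for hormone and is itself a receptor target. Its TPM was 2.85 in sevoflurane 0 h, 12.7 in sevoflurane 6 h, 4.10 in desflurane 0 h and 18.9 in desflurane 6 h. The 6 h livers were 4.46-fold higher with sevoflurane and 4.61-fold higher with desflurane (1.83 and 1.96 on the log2 scale), while the controls differed 1.44-fold (0.41). *Klf9* (chromosome 1, 240908483 to 240933198) encodes a zinc finger transcription factor of the Krüppel-like family. Its TPM was 10.2, 46.8, 11.7 and 61.5 in the same order, which is 4.58-fold and 5.25-fold higher (2.09 and 2.30), beside a 1.15-fold difference between controls (0.18). For both genes the groups of 6 h and 0 h livers did not overlap, and with the controls exchanged between agents the ratios stayed between 3.10 and 6.64. The mean depth per base behind the lowest value, *Fkbp5* in sevoflurane 0 h, was 6.72.

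The promoters of *Fkbp5* and *Klf9* are shown because these genes were called higher with both agents while their controls differed little. Each window runs from 250 bases before the start site to 50 after it, read 5′ to 3′ along the gene (RefSeq, build GRCr8, which is not the build of the expression tables). Capitals mark CCAAT, a common promoter element, on either strand (ATTGG on the reverse), TATAAA, and ACANNNTGT, the inner letters of the palindrome that the receptor binds. The *Fkbp5* window (chr20:6543506-6543805, minus strand) has a GC content of 77.0% and that of *Klf9* (chr1:230126396-230126695, plus strand) 65.3%, where the median of all 33469 windows was 51.7%.
Fkbp5: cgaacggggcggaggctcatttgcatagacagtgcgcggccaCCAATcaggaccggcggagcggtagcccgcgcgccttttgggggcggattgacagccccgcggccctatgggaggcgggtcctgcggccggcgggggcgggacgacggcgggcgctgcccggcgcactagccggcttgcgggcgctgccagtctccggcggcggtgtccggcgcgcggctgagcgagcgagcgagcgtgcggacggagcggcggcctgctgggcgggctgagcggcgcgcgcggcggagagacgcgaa
Klf9: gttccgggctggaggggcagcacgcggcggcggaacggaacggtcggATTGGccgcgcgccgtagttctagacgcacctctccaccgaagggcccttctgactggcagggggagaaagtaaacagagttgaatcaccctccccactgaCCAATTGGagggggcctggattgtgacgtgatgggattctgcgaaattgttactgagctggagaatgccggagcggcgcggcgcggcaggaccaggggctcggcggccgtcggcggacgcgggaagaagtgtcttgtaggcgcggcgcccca
The *Fkbp5* window holds 1 CCAAT, 208 bases before the start site. *Klf9* holds CCAAT 102 bases before the start and its reverse at 203 and 99, where the matches at 102 and 99 share 2 letters. Over the 11 windows found for 6 of the 10 genes (none was given for *Zbtb16*, *Hsd11b1*, *Serpina6* and *Cebpd*), the full receptor palindrome (AGAACA, 3 free letters and TGTTCT, which contains ACANNNTGT) matched 0, and it matched 5 of the 33469 windows (0.0149%). Its arm AGAACA matched 0 of the 11, against 20.7% of all windows. The letters ACANNNTGT matched 1 of the 11, against 6.86% of all windows. CCAAT and TATAAA each matched 4 of the 11, against 37.5% and 14.2%. The clock elements CACGTG and TTATGNAA matched 0 of the 11, against 6.42% and 3.66%. Both strands were searched, and such matches describe letters in a short window and not binding sites.

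*Zbtb16* and *Tsc22d3* were also higher at 6 h, but by amounts that differed between the agents, and they differed between the controls as well. *Zbtb16* (chromosome 8, 52985444 to 53146765) encodes the transcriptional repressor PLZF. Its TPM was 0.67 in sevoflurane 0 h, 8.39 in sevoflurane 6 h, 3.79 in desflurane 0 h and 13.3 in desflurane 6 h. Both 6 h livers were above both controls. The ratio was 12.6 with sevoflurane and 3.52 with desflurane (2.50 and 1.58), and the controls themselves differed 5.70-fold (1.52). Sevoflurane 6 h was therefore 2.22-fold above the desflurane control, and desflurane 6 h 20.1-fold above the sevoflurane control. The mean depth behind the sevoflurane 0 h value was 1.57 per base, the lowest of the 40 member values, and no locus on that strand was assembled there.

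*Tsc22d3* (chromosome X, 111884285 to 111887906, minus strand) encodes GILZ, a leucine zipper protein that carries part of the anti-inflammatory action of glucocorticoids. Its TPM was 10.3 in sevoflurane 0 h, 31.8 in sevoflurane 6 h, 19.5 in desflurane 0 h and 22.0 in desflurane 6 h. The sevoflurane pair differed 3.08-fold (1.54) and was called, whereas the desflurane pair differed 1.13-fold (0.17). Here too the controls differed, 1.89-fold (0.86), and against the desflurane control the sevoflurane 6 h liver was 1.63-fold higher, below the threshold. Both 6 h livers were still above both controls. The named row spans 3622 bp, the short end of the gene, but in each of the 4 libraries the locus assembled on the same strand began between 55.8 and 56.8 kb farther upstream, and its TPM was between 4.08% and 8.66% above that of the named row. In GRCr8 the start sites of *Tsc22d3* likewise fall into a downstream site and a pair 55.4 and 56.4 kb upstream of it. The values above cannot be divided between these starts.

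**Figure D2:**
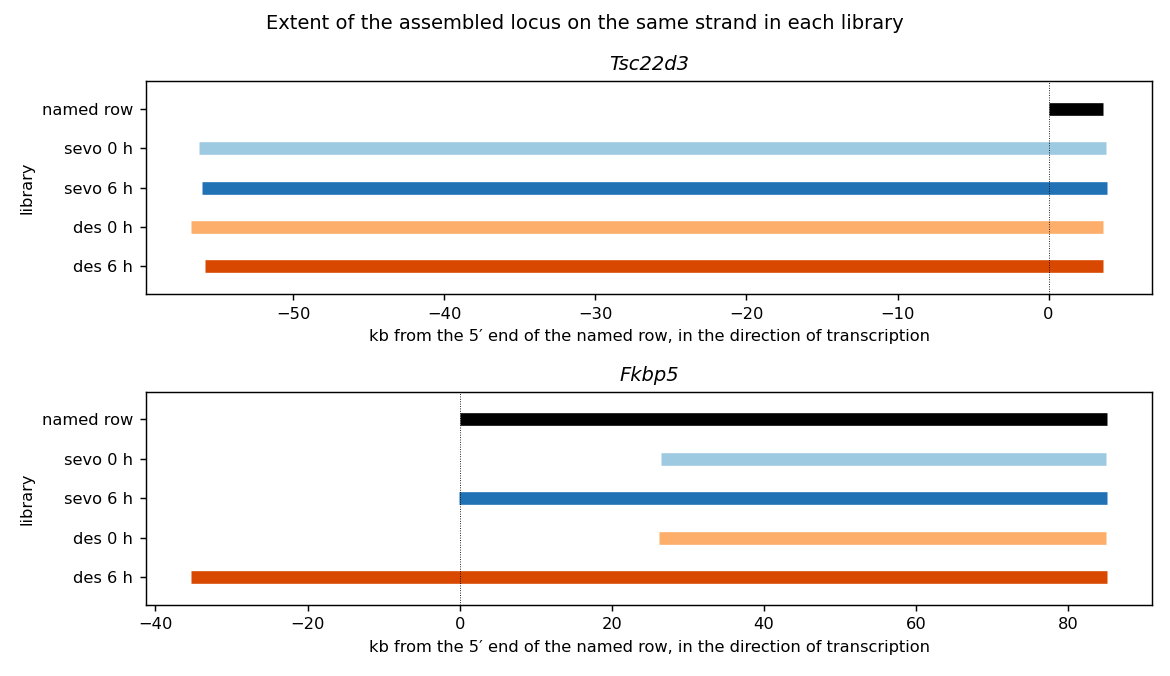
Extent in kb, from the 5′ end of the named row (dotted line at 0) along the direction of transcription, of the locus assembled on the same strand as *Tsc22d3* and *Fkbp5* in each of the 4 libraries, with the named row in black. The *Tsc22d3* locus began 55.8 to 56.8 kb upstream in every library, while the *Fkbp5* locus ended 26.4 and 26.1 kb short of the named start in the controls and reached it in both 6 h libraries.

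A pair of *Tsc22d3* windows is shown. The upstream one holds the ACANNNTGT match found among the 11 windows, and the other belongs to the downstream start. Coordinates were not carried between the builds, so the named row was not assigned to either start. The upstream window is chrX:109065381-109065680 and the downstream one chrX:109009985-109010284, both on the minus strand.
Tsc22d3 upstream: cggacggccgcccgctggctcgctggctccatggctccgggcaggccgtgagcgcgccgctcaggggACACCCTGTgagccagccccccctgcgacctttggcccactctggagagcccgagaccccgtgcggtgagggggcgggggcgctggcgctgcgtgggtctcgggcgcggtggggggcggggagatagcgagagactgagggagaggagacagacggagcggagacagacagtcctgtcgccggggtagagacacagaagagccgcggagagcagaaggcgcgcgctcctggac
Tsc22d3 downstream: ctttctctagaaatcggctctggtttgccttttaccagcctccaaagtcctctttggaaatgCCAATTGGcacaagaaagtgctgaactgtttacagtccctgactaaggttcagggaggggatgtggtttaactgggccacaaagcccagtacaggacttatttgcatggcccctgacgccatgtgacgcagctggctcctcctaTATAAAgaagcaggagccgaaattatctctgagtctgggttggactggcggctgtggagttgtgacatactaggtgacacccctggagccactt
The upstream window has a GC content of 73.0% and carries ACACCCTGT 183 bases before its start site. The downstream window has a GC content of 50.7%, with TATAAA 44 bases before the start, and CCAAT at 188 and its reverse at 185, which share 2 letters.

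The assembled *Fkbp5* locus also differed in extent. In both controls it ended 26.4 kb (sevoflurane) and 26.1 kb (desflurane) short of the named 5′ end, in sevoflurane 6 h it lay within 0.046 kb of it, and in desflurane 6 h it reached 35.3 kb beyond it. The TPM of these loci, 2.90, 13.5, 4.04 and 18.8, followed the named row in every library. The depth in the controls was the lower, at 6.72 and 14.2 per base against 43.4 and 68.7, and its part in the extent was not tested.

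*Errfi1* was abundant in every library and higher at 6 h with both agents, although the change was called with desflurane alone. *Errfi1* (chromosome 5, 167952728 to 167966011), also known as Mig-6, encodes an inhibitor of the epidermal growth factor receptor. Its TPM was 183 in sevoflurane 0 h, 291 in sevoflurane 6 h, 161 in desflurane 0 h and 363 in desflurane 6 h. The ratios were 1.60 and 2.25 (0.67 and 1.17), and the controls differed by -0.18. Both 6 h livers were above both controls. In the assembled locus the TPM was 185, 231, 136 and 309, so that the sevoflurane change was 0.32 there. That locus spanned 13284 bp in both controls, 18760 bp in sevoflurane 6 h and 19381 bp in desflurane 6 h. Its values thus compare loci of unlike extent. Whether the agents differed in the change of *Errfi1* was not tested.
Errfi1 promoter (chr5:166606591-166606890, plus strand, GRCr8): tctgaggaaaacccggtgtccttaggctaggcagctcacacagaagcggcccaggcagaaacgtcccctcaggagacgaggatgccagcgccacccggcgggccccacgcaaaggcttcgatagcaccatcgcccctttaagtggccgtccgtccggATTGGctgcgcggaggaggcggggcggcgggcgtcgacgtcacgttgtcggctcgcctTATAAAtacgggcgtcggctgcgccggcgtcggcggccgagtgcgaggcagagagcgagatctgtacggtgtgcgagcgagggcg
This window is shown for comparison with those of *Fkbp5* and *Klf9*. It carries TATAAA 35 bases and the reverse of CCAAT 93 bases before the start site, at a GC content of 67.3%.

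*Sgk1* was the 1 gene of the 10 called lower, and with sevoflurane alone. *Sgk1* (chromosome 1, 24185451 to 24193567, minus strand) encodes a serine/threonine kinase that acts on ion channels and transporters. Its TPM was 32.7 in sevoflurane 0 h, 8.59 in sevoflurane 6 h, 21.6 in desflurane 0 h and 26.7 in desflurane 6 h. The sevoflurane 6 h liver was 3.81-fold below its control (-1.81) and 3.11-fold below the desflurane 6 h liver. With desflurane the ratio was 1.24 (0.29), which did not pass the rule, and against the sevoflurane control the desflurane 6 h liver was lower (-0.28). The controls differed by -0.57. Sevoflurane 6 h was the lowest library and the other 3 lay between 21.6 and 32.7. Its assembled locus was also shorter at the 5′ end in that library, by 2292 bases, while it began within 0.009 kb of the named start in the others. The depth in that library was 26.4 per base, against 64.5 to 84.7 in the others, and its part in the extent was not tested. GRCr8 places the start sites of *Sgk1* up to 2400 bases apart, and the windows of the most downstream and most upstream start are shown for that reason (chr1:24804782-24805081 and chr1:24807182-24807481, minus strand).
Sgk1 downstream: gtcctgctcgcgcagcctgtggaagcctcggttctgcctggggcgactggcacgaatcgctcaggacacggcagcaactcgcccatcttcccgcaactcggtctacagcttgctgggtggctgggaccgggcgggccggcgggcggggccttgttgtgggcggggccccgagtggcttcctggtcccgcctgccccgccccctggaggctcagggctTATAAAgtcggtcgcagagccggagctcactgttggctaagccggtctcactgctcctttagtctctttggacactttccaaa
Sgk1 upstream: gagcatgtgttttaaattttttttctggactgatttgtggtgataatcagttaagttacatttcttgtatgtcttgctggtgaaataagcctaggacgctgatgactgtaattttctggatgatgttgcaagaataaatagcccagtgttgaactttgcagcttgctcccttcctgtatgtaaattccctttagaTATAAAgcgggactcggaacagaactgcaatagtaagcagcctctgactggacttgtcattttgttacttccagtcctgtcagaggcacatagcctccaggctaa
TATAAA lies 33 bases before the downstream start and 55 bases before the upstream one. The GC content is 66.0% at the former and 40.7% at the latter.

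*Cebpd* was the least abundant of the 10 genes. *Cebpd* (chromosome 11, 89008008 to 89009146) encodes C/EBP delta, a transcription factor of the acute phase response. Its TPM was 1.23 in sevoflurane 0 h, 2.59 in sevoflurane 6 h, 2.84 in desflurane 0 h and 3.85 in desflurane 6 h, with depths between 2.91 and 14.02 per base. The sevoflurane pair was past the rule at a ratio of 2.10 (0.69) and the desflurane pair was not, at 1.36 (0.34). The desflurane control was higher than the sevoflurane 6 h liver, so the groups overlapped, and the difference between controls (2.30-fold, 0.78) was larger than either change.

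**Figure D3:**
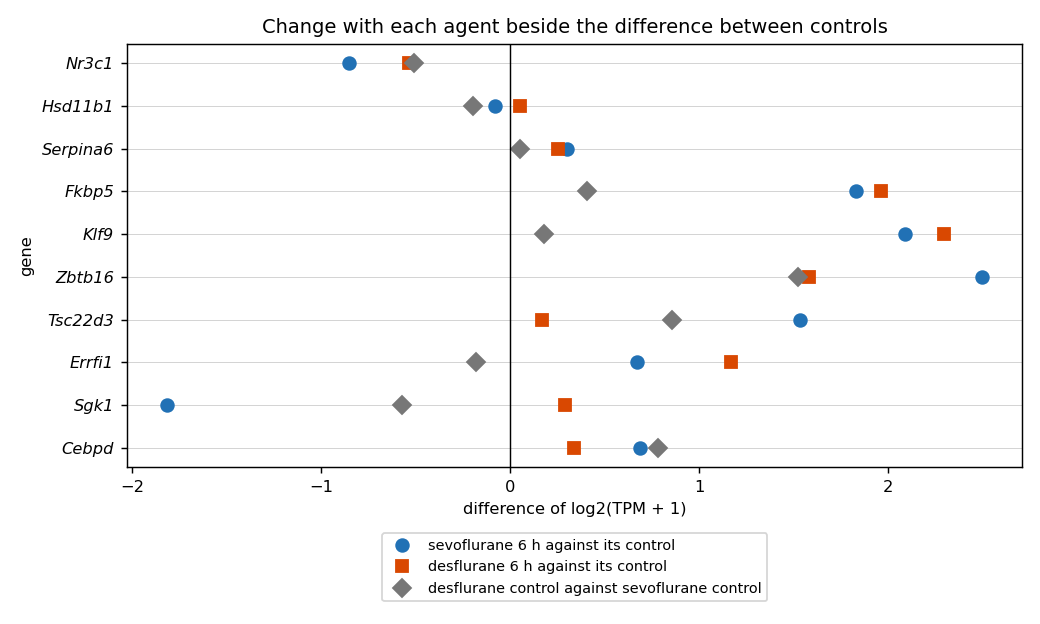
Difference of log2(TPM + 1) for the 10 genes, with circles for sevoflurane 6 h against its control, squares for desflurane 6 h against its control and diamonds for the desflurane control against the sevoflurane control. *Fkbp5* and *Klf9* had changes of 1.83 or more with both agents and control differences of 0.41 or less, whereas for *Zbtb16*, *Tsc22d3* and *Cebpd* the control difference was 0.78 or more.

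In all, both 6 h livers were above both controls for 6 of the 10 genes (*Fkbp5*, *Klf9*, *Zbtb16*, *Tsc22d3*, *Errfi1* and *Serpina6*), against 23.0% of genes at that mean level. They were below both controls for 1 (*Nr3c1*) and overlapped them for 3 (*Sgk1*, *Hsd11b1* and *Cebpd*). By mean TPM over the libraries the order was *Hsd11b1* (480.0), *Serpina6* (405), *Errfi1* (249.7), *Nr3c1* (35.5), *Klf9* (32.5), *Sgk1* (22.4), *Tsc22d3* (20.9), *Fkbp5* (9.64), *Zbtb16* (6.55) and *Cebpd* (2.63). The ranges over libraries of neighbors in this order overlapped, except between *Hsd11b1* and *Serpina6* and between *Errfi1* and *Nr3c1*.

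limma was used to test the shared change, 6 h against 0 h with the agent as a block, in 8024 genes (mean TPM 2 or more). The agents stand in for replicates here, and a gene's own spread is that between its changes with the 2 agents, on 1 residual degree of freedom. limma draws this spread toward a trend fitted over all genes tested. The SE and p below therefore rest on that trend as well, and not on the gene's own spread alone. *Fkbp5*, *Klf9*, *Zbtb16* and *Errfi1* were higher, and *Nr3c1* was lower, with an adjusted p below 0.05, against 4.69% of genes higher and 3.94% lower (8.62% in all). *Klf9* rose by 2.19 ± 0.17 (SE) with an adjusted p of 5.23e-06 in limma. *Fkbp5* rose by 1.90 ± 0.22 with an adjusted p of 1.02e-04 in limma, and *Zbtb16* by 2.04 ± 0.26 with an adjusted p of 2.95e-04. *Errfi1* rose by 0.92 ± 0.14, with an adjusted p of 0.00115 in limma. *Nr3c1* fell by 0.69 ± 0.16, with an adjusted p of 0.0194 in limma. *Tsc22d3* had a common change of 0.85 ± 0.27 with an adjusted p of 0.0758, and *Sgk1*, *Serpina6*, *Cebpd* and *Hsd11b1* had adjusted p from 0.200 to 0.975. *Klf9* and *Fkbp5* were below 0.05 in each of the 11 fits tried. The call of *Nr3c1* was lost without the agent block (0.0859), with median-of-ratios scaling (0.0586) and without the trend (0.0927). Fits that left out 1 library also dropped the block, so they are not the fit above with 1 library fewer. The call of *Nr3c1* was lost in each of them, with changes from -0.95 to -0.44. That of *Zbtb16* was lost without sevoflurane 0 h and without desflurane 6 h, and its changes ran from 1.28 to 2.80. That of *Errfi1* was lost without sevoflurane 0 h and without desflurane 0 h, and its changes ran from 0.76 to 1.08.

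**Figure D4:**
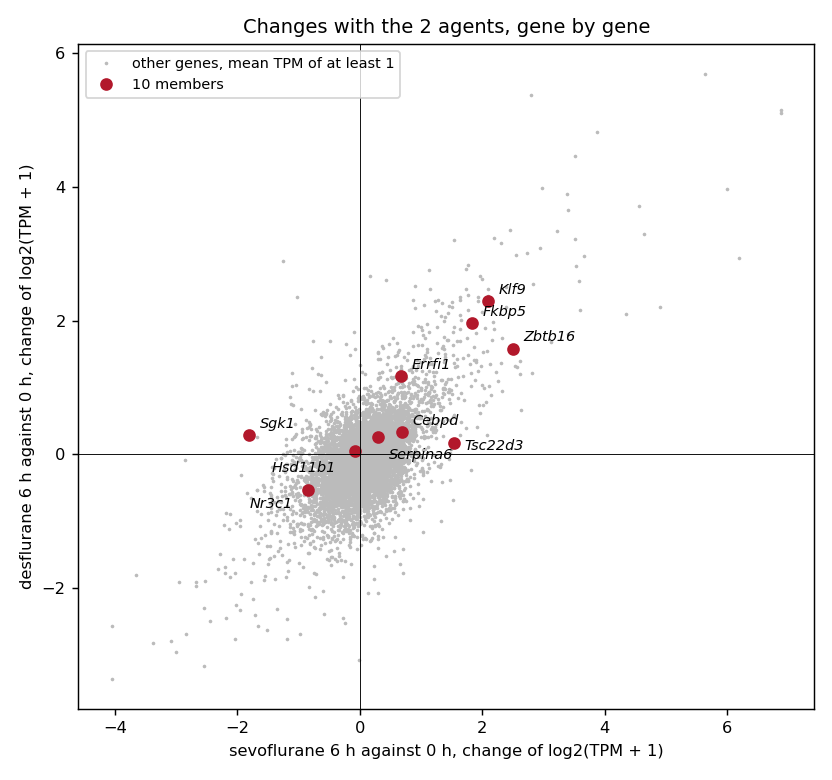
Change of log2(TPM + 1) with sevoflurane (horizontal axis) and with desflurane (vertical axis), 1 point per gene whose TPM averaged 1 or more, the 10 genes in red. *Klf9*, *Fkbp5* and *Zbtb16* lie at the upper right, and *Sgk1*, at -1.81 and 0.29, lies apart at the left.

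Other genes of the pathway were examined in lists. Of 30 further genes that glucocorticoids are known to induce in liver, all found, 25 were above the TPM minimum with sevoflurane and 26 with desflurane. Sevoflurane had 14 called higher and 2 lower (5.04% and 3.71% of all genes), and desflurane 18 and 1 (4.10% and 5.55%). The number called higher with both was 12, against 2.54% of all genes. Over the 26 whose TPM averaged 1 or more, the medians were 0.92 and 1.59. *Sds*, serine dehydratase, was 131-fold and 36.1-fold higher, and *Lpin1*, a phosphatidate phosphatase, 13.3-fold and 25.0-fold. The desflurane control was above the sevoflurane control 2.28-fold in *Sds*, which passed the rule, and 1.33-fold in *Lpin1*. Between the controls, 22 of the 30 genes were above the TPM minimum. Of these, 5 were called higher in the desflurane control and 1 lower, against 1.96% and 0.799% of all genes. *Tat*, the tyrosine aminotransferase that is a classical receptor target, had a TPM of 123 and 529 in the sevoflurane pair and 119 and 623 in the desflurane pair, with controls that were nearly equal (-0.04). *Dusp1*, a phosphatase of MAP kinases, had 24.9 and 28.2 with sevoflurane and 10.7 and 73.1 with desflurane, and its controls differed 2.34-fold. *Per1*, a clock gene that the receptor also induces, had 0.35 and 6.05, then 1.38 and 9.95, and its controls differed 3.91-fold.

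Genes that carry or modify the receptor, chaperones and coregulators, were found for 20 of 21. Above the TPM minimum were 20 with sevoflurane and 19 with desflurane. None was called higher with either agent (5.04% and 4.10% of all genes), and 1 was called lower with sevoflurane and 2 with desflurane (3.71% and 5.55%). Their median changes were 0.05 and -0.37. Between the controls, 2 of 19 were called higher in the desflurane control and 0 lower, against 1.96% and 0.799% of all genes. *Fkbp4*, which encodes FKBP52, the HSP90 partner that competes with FKBP51 on the receptor, was lower with both agents, at 70.0 and 27.9 in the sevoflurane pair and 68.2 and 27.1 in the desflurane pair. It was thus 2.51-fold and 2.52-fold lower where *Fkbp5* was higher, and its controls differed by -0.04. In the list of 14 genes of steroid supply, 12 were above the TPM minimum with each agent. Sevoflurane had 6 called higher and 1 lower (5.04% and 3.71% of all genes), and desflurane 4 and 0 (4.10% and 5.55%). *H6pd*, which makes the NADPH used by the enzyme of *Hsd11b1*, was 2.14-fold and 2.22-fold higher, and *Abcb1a*, an efflux pump that exports glucocorticoids, 7.99-fold and 2.55-fold higher. Their controls differed 1.29-fold and 1.81-fold. Of 19 inflammatory genes known to be repressed by glucocorticoids, with 11 at a mean TPM of 1 or more, 1 was called higher and 2 lower with each agent. Above the TPM minimum were 9 of them with sevoflurane and 10 with desflurane. Over all genes, 5.04% were called higher and 3.71% lower with sevoflurane, and 4.10% and 5.55% with desflurane. With so few genes above the minimum, each call is a large part of the list. The medians were -0.33 and -0.57. *Irf1*, an interferon regulatory factor, was 4.57-fold and 5.95-fold lower, while *Vcam1*, an adhesion molecule, was 2.46-fold and 2.37-fold higher. The controls differed 1.34-fold in *Irf1* and 1.52-fold in *Vcam1*.

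Paralogs of the 10 genes were called in both directions. Among 33 of 34 found, 23 were above the TPM minimum with sevoflurane and 25 with desflurane. Sevoflurane had 5 called higher and 3 lower (5.04% and 3.71% of all genes), and desflurane 7 and 3 (4.10% and 5.55%). The medians were 0.16 and 0.02. *Tsc22d1* was 3.42-fold and 4.59-fold lower, at 103 and 30.2 in the sevoflurane pair and 143 and 31.2 in the desflurane pair, and *Sgk2* was 4.05-fold and 4.96-fold lower. The controls differed 1.38-fold in *Tsc22d1* and 1.90-fold in *Sgk2*. *Klf15*, a Krüppel-like factor that is also a receptor target, was 3.93-fold and 2.78-fold higher, and *Klf16* 4.15-fold and 3.14-fold. Their controls differed 1.13-fold and 1.33-fold.

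**Figure D5:**
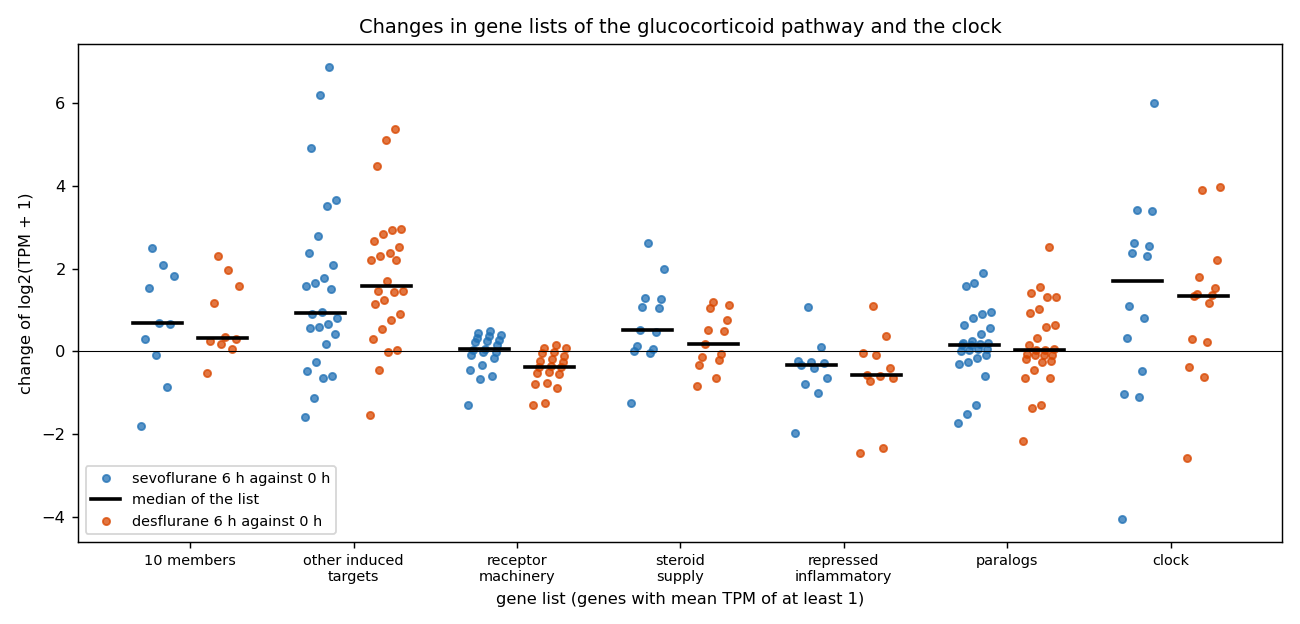
Change of log2(TPM + 1) of each gene (mean TPM 1 or more) in 7 gene lists, blue for sevoflurane and orange for desflurane (6 h against 0 h), with bars for the median of a list. The medians were 0.68 and 0.31 in the 10 genes, 0.92 and 1.59 in the other induced targets and 0.05 and -0.37 in the receptor machinery. In the clock list they were 1.70 and 1.35.

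Clock genes moved in the same comparisons. Of 18 listed, 15 were found, and 14 were above the TPM minimum with each agent. Sevoflurane had 9 called higher and 3 lower (5.04% and 3.71% of all genes), and desflurane 9 and 1 (4.10% and 5.55%). *Dbp* had a TPM of 0.40, 87.9, 1.92 and 44.8 in the order of libraries used above, *Nr1d1* 0.41, 7.65, 2.41 and 7.95, and *Arntl* 22.6, 0.43, 17.6 and 2.14. *Ciart* had a listed value of 0 in the sevoflurane control and 9.46, 0.24 and 17.5 in the others. The desflurane control was 4.79-fold above the sevoflurane control in *Dbp*, under the TPM minimum, and 5.91-fold above it in *Nr1d1*. In *Arntl* it was 1.28-fold below. Of 9 clock genes above the minimum in the controls, 2 were called higher in the desflurane control and 1 lower, against 1.96% and 0.799% of all genes. Among genes whose TPM averaged 1 or more, the desflurane control was the higher of the controls in 9 of 14 clock genes. It was the higher in 6 of the 10 genes described here and in 6374 of all 9201 genes at that level. The part of the clock in the values of the 10 genes was not tested.

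Markers of other cell types were summed as well. Over all genes, 5.04% were called higher and 3.71% lower with sevoflurane, and 4.10% and 5.55% with desflurane. The red blood cell list (5 of 5 found) went from 471 to 1259 TPM with sevoflurane, with 4 called higher, and from 757 to 1399 with desflurane, with 0 called. Lymphocyte markers (8 of 8) went from 7.67 to 3.47 and from 6.54 to 2.90, with 2 and 1 called lower, and *Cd3e* was listed at 0 in both controls. Kupffer cell markers (8 of 8) went from 387 to 318 and from 346 to 417, endothelial markers (6 of 7) from 56.5 to 54.0 and from 52.1 to 62.6, with 0 called in either. Stellate cell markers (7 of 7) went from 118 to 168 and from 127 to 181, with 1 called lower with sevoflurane. Bile duct markers (4 of 5) lay between 6.90 and 8.61 with 0 called, and neutrophil markers (5 of 5) between 1.85 and 3.94, with 1 called higher with sevoflurane and 1 lower with desflurane. *Cxcr2* and *Mmp8*, of the neutrophil list, were at or under a TPM of 0.0885 in every library. Hepatocyte markers had 0 calls with sevoflurane and 1 higher with desflurane. Their part in the changes above was not tested.

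The genes with the most similar pattern were sought among 8014 other genes. The mean centered log2(TPM + 1) of the 9 genes other than *Nr3c1* was -0.60 in sevoflurane 0 h, 0.26 in sevoflurane 6 h, -0.28 in desflurane 0 h and 0.62 in desflurane 6 h. Over these 4 libraries the smallest root mean square distances from this profile were those of *LOC100912041* (0.020), *Timp1* (0.035), *Slc7a10* (0.043), *Lrrfip1* (0.047) and *Fbxo21* (0.052). Among the 10 genes themselves the distance ran from 0.18 (*Errfi1*) to 0.97 (*Sgk1*). With 4 libraries many genes lie close to any such profile.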

How the data were processed

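RNA sequencing libraries of rat liver were prepared, per the labels, from total RNA with a stranded kit that starts from total RNA. The submitters' processing notes name HISAT2, SAMtools, StringTie and the build rn6, without versions. The authors deposited 1 gene abundance table per library. The deposited TPM column sums to 1.77 to 1.79 times the total that the unit implies, because named genes and assembled loci share reads, and was handled as a score. The deposited FPKM values and the deposited coverage (mean depth per base, not scaled) were used to derive the aligned bases (3.50, 5.38, 5.29 and 5.57 Gb). Rows of a symbol were summed and rows spanning 200 bp or less left out, which left 16985 of 17455 symbols. A call required a TPM above 2 and a ratio above 2, and with 1 library a group no p-value was computed for it. limma 3.58.1 (R 4.3.3; eBayes with trend, two-sided, Benjamini-Hochberg over 8024 genes) tested the common change. Steps were tested on simulated data. Coordinates are those of the tables, promoter sequences those of RefSeq (GRCr8).

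The genes and lists were chosen with earlier results of these data known, so no p over a list is given. Named genes were all 10 members, from each context list, among genes called with both agents, up to 2 per direction ranked by the lesser of their changes, *Tat*, *Dusp1*, *Per1*, *Dbp*, *Nr1d1* and *Arntl*, and the 5 nearest profiles. Alternatives covered thresholds, scaling, pseudocount, short rows, the other control, assembled loci, and the block, trend and libraries of the limma fit.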

Additional observations from a re-analysis of the deposited data

Results flagged for a closer look

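*Sgk1* had changes of opposite sign with the 2 agents, with a TPM of 32.7 at 0 h and 8.59 at 6 h for sevoflurane, then 21.6 and 26.7 for desflurane. The change with desflurane exceeded that with sevoflurane by 2.11 on the log2 scale. The desflurane change of 0.29 was not called, and against the sevoflurane control it was -0.28. *Hsd11b1* also had changes of opposite sign, but they differed by 0.14, less than the difference of -0.20 between the controls. With 1 pair of animals per agent neither difference was tested.

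On the strand opposite to *Fkbp5*, away from any named gene of that strand, loci were assembled in the desflurane libraries and in none of the sevoflurane libraries. They summed to a TPM of 1.80 in desflurane 6 h (8036879 to 8042544 and 8058531 to 8066498 on chromosome 20) and 0.93 in desflurane 0 h (8032396 to 8041697). Their mean depth was between 2.38 and 4.16 per base.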

How the results depend on the processing

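The calls with each agent kept within 1.5 times their number under most alternatives. With the control of the other agent, 3 in place of 5 genes were called higher with sevoflurane and 1 in place of 0 lower with desflurane, the change of *Cebpd* with sevoflurane turned to -0.10, and the median with desflurane became 1.01. With assembled loci in place of named rows the sevoflurane median became 0.32, without *Zbtb16*, which had no such locus in sevoflurane 0 h, and 1 gene was called higher between the controls. A ratio above 3 left 1 gene higher between the controls and a TPM minimum of 5 left 0. A ratio above 1.5 gave 2 genes lower with sevoflurane, 1 lower between the controls and 2 higher between the 6 h livers. Changes that had not been called also turned sign with the controls exchanged, *Sgk1* with desflurane to -0.28 and *Hsd11b1* to 0.11 with sevoflurane and -0.14 with desflurane, and under median-of-ratios scaling the control difference of *Serpina6* became -0.08 and the median control difference -0.0065. Of the changes of single members, 226 moved by less than 0.23, the spread of the control difference over genes, and 31 by more, beside that of *Cebpd*. In limma, 0 members were lower without the agent block, under median-of-ratios scaling or without the trend, and the last called 440 genes, where 692 were called with the trend. Leaving out each library in turn, without the block and with the lone library of its arm assumed to vary like the others, gave 2 to 4 members higher, 0 to 1 lower and 163 to 591 genes called. The fewest were called without sevoflurane 0 h (163), then without desflurane 0 h (283) and desflurane 6 h (411). *Sgk1* passed without desflurane 6 h alone (adjusted p = 0.00898), with values from -1.53 to 0.0061 over these fits. Coverage under 3 per base limits *Zbtb16* and *Cebpd* in sevoflurane 0 h.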
